A study of Mus musculus with 48 samples.

Results

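The genes described here are 10 components and targets of canonical Wnt signaling, matched from gene identifier to mouse symbol among the 23862 gene identifiers of the series. They are the feedback inhibitors Axin2, Nkd1, Znrf3 and Rnf43, the Wnt-induced transcription factor Sp5, the ligand Wnt3, and the TCF/LEF factors Lef1, Tcf7, Tcf7l1 and Tcf7l2. The cells were E14TG2a, a single line of mouse embryonic stem cells (mESCs), grown in “2i + LIF” medium. All groups, the start included, received CHIR99021, an inhibitor of the kinase GSK3, the MEK inhibitor PD0325901 and leukemia inhibitory factor. Every library analysed here came from cells treated with 1 µM flavopiridol, which inhibits CDK9, the kinase that lets paused RNA polymerase II proceed, and thereby stops most mRNA synthesis. Polyadenylated RNA was sequenced at 30, 60, 120 and 240 min from whole cells (total) and from their nuclear, cytosolic and membrane fractions, with 3 independently passaged cultures per group and 48 libraries in all. The membrane fraction is what a stronger detergent releases after digitonin has opened the cells, and holds the endoplasmic reticulum. A gene's value is a ratio, its level divided by that at 0 min for the same fraction, and 1 means no change. A fraction's ratios give a time course and not the amount in one fraction relative to another.

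Canonical Wnt signaling keeps β-catenin from destruction by a complex built on AXIN scaffolds, in which GSK3 marks β-catenin for degradation. An inhibitor of GSK3 therefore switches the pathway on below the receptors. Stabilised β-catenin enters the nucleus and joins TCF/LEF proteins on DNA, where TCF7L1 acts mostly as a repressor in mESCs and TCF7 and LEF1 mostly as activators. Several of the genes that are then switched on restrain the pathway. AXIN2 rebuilds the destruction complex, NKD1 acts on Dishevelled, and the transmembrane ubiquitin ligases ZNRF3 and RNF43 remove Frizzled receptors from the cell surface.

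Of the 10 genes, 8 were listed in at least 1 of the 48 libraries, and Axin2, Znrf3, Tcf7 and Tcf7l1 were listed in all 48. Lef1 and Rnf43 were listed in none. Genes at 0 in a library are not listed, and the ratio cannot be formed for a gene at 0 at the start, so no level can be given for these 2 genes. Nkd1 was listed in 47 libraries and Wnt3 in 46, with 2 cytosolic libraries missing. Sp5 was listed in 39 and Tcf7l2 in 20, none of them cytosolic. Between 15067 and 19501 genes were listed per library. Since no read depth is stated, counting error cannot be given. The nuclear library of replicate 1 at 30 min stood apart, with a median ratio of 0.556 against 0.934 and 0.805 in the other 2 replicates. Of 6 markers of embryonic stem cells, Pou5f1, Sox2, Nanog and Tfcp2l1 were listed in all libraries, and Esrrb and Zfp42 in some. Of 11 markers of differentiated lineages, 0 were listed in all libraries and 8 in some. Ratios hold no levels, so only listing could be checked.

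In the mm10 (GRCm38) annotation, 5 of the genes lie on chromosome 11. Axin2 (ENSMUSG00000000142) spans chr11:108920349-108950783 on the plus strand, Wnt3 (ENSMUSG00000000125) chr11:103774150-103817957 and Rnf43 (ENSMUSG00000034177) chr11:87662722-87735539. Znrf3 (ENSMUSG00000041961) spans chr11:5276324-5444847 and Tcf7 (ENSMUSG00000000782) chr11:52252371-52283014, both on the minus strand. Sp5 (ENSMUSG00000075304) lies at chr2:70474923-70477729, Lef1 (ENSMUSG00000027985) at chr3:131110471-131224356, Nkd1 (ENSMUSG00000031661) at chr8:88521354-88594884 and Tcf7l2 (ENSMUSG00000024985) at chr19:55741820-55933654, all on the plus strand. Tcf7l1 (ENSMUSG00000055799) lies at chr6:72626378-72789254 on the minus strand. Their length differed widely, from 2.8 kb for Sp5 through 30.4 kb for Axin2 to 162.9 kb for Tcf7l1, 168.5 kb for Znrf3 and 191.8 kb for Tcf7l2, against a median of 24 kb over tested coding genes. Annotated antisense genes overlap Axin2 (Gm11670), Tcf7 (A630014C17Rik), Tcf7l1 (Gm15401 and Gm15402) and Lef1 (Gm43352). The library kit keeps strand, but whether counting used it is not given in the sources used here. Reads of these antisense pairs may thus have been assigned to either gene. Strand cannot separate genes on the same strand, which overlap Tcf7 (Gm26551), Nkd1 (Gm45496), Tcf7l1 (Gm37969, Gm38114 and Gm37736), Rnf43 (1110028F11Rik), Lef1 (Gm42449) and Tcf7l2 (Ppnr).

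Among the 6 genes of this set that were listed in every total library, the ligand Wnt3 and the scaffold Axin2 lost most of their transcript, and Tcf7, Znrf3 and Tcf7l1 lost less. Change with time was tested as a linear slope of log2 ratios against hours, with limma across all genes of a fraction and Benjamini-Hochberg adjustment, and called at an adjusted p under 0.05. In total RNA 5 of the 6 tested members fell and 0 rose, while the shares of all tested genes were 56.9% and 3.39%. Of nuclear members 5 of 6 fell, against 61.9% of all genes, and 0 rose, against 3.32%, and without the library that stood apart 5 fell as well. In the cytosol 3 of 5 fell, against 67.1%, and 0 rose, against 2.95%. In the membrane fraction 4 of 5 fell, against 62.2%, and 0 rose, against 4.09%. No member had a slope above 0 in limma in any fraction, so none did at an unadjusted p under 0.05 either. These shares are near those of all genes, and the genes differed in how far they fell. In these bulk samples, fewer cells that express a gene and less RNA per cell cannot be told apart.

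**Figure D1:**
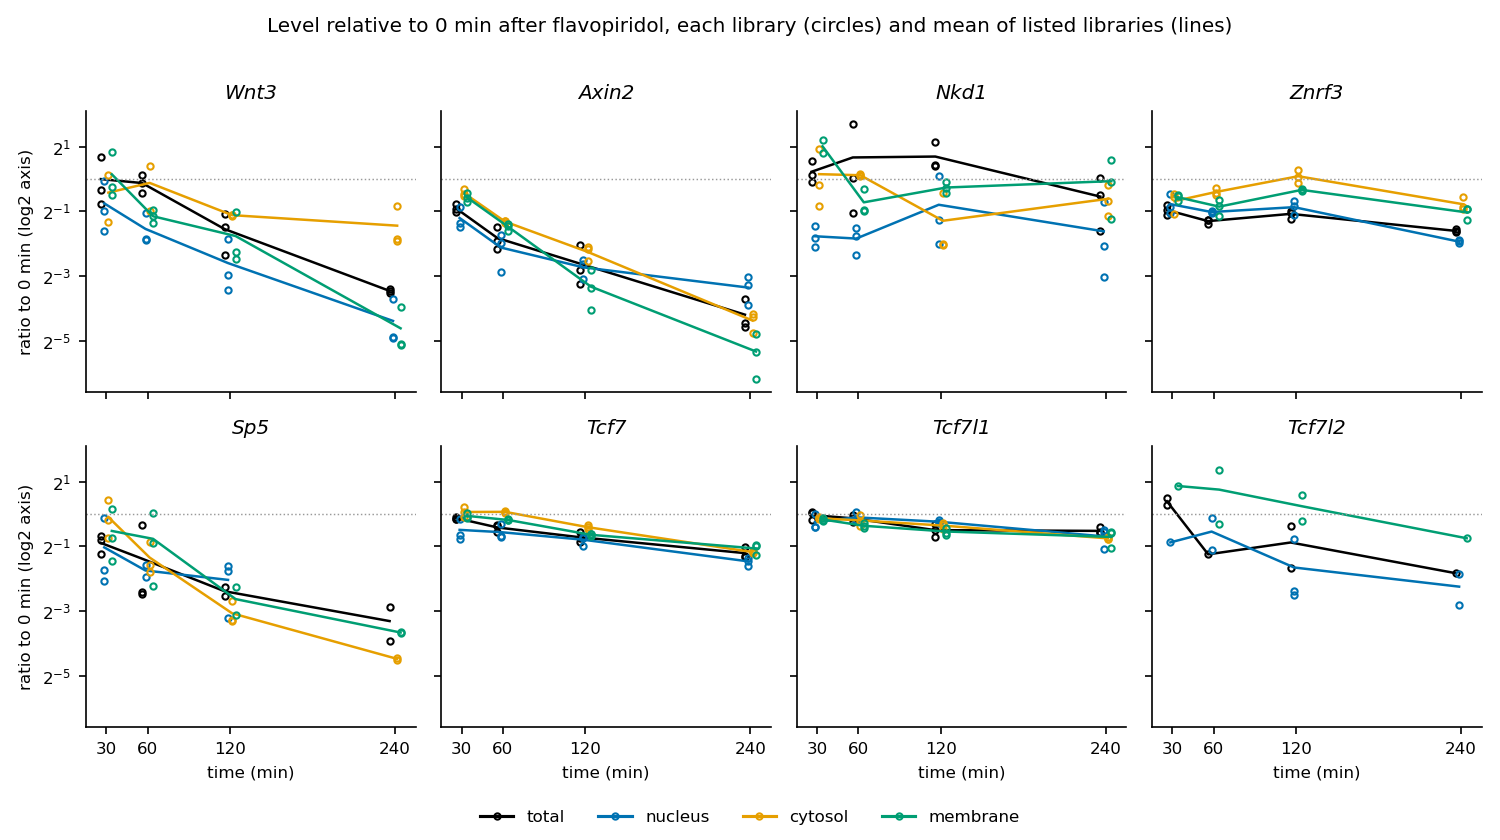
Ratio to 0 min (log2 axis) against time in min for the 8 listed genes, with 1 circle per library, set slightly apart by fraction, and lines through the mean of the listed libraries. Axin2 and Wnt3 fell in every fraction whose 12 libraries all listed them, Tcf7l1 stood at 0.476 or higher in all 48 libraries, and cytosolic Znrf3 was higher at 120 min than at 30 min.

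Because most genes fell, the members were also set against the median gene of each library. The median gene stood at 240 min at a log2 ratio of -1.05 in total, -1.52 in nuclear, -1.07 in cytosolic and -1.08 in membrane RNA. After centring each library on its median gene, Axin2 and Wnt3 (2 of 6) fell relative to it in total RNA, where 31% of all genes did so, and Tcf7l1 (1 of 6) rose relative to it, as did 28.8%. In the nucleus Wnt3 fell relative to the median gene (29.2% of all genes) and Tcf7l1 rose (29.6%). In the cytosol Axin2 and Tcf7 fell (32.4%) and Znrf3 and Tcf7l1 rose (29.4%). In the membrane fraction Axin2 and Wnt3 fell (30.9%) and Tcf7l1 rose (28.3%). Tcf7l1 was thus kept above the median gene in each of the 4 fractions, and Wnt3 lay below it in each of the 3 where it was tested. With libraries scaled to mitochondrially encoded mRNAs instead, calls were lost for nuclear Axin2 (-0.36, adjusted p = 0.15), Tcf7 (-0.09, adjusted p = 0.64), Znrf3 (-0.12, adjusted p = 0.52) and Tcf7l1 (0.04, adjusted p = 0.82), and for cytosolic Tcf7 (-0.22, adjusted p = 0.15) and Tcf7l1 (-0.02, adjusted p = 0.92). Over 30 to 120 min alone they were lost for nuclear Znrf3 (-0.03, adjusted p = 0.89), Tcf7 (-0.20, adjusted p = 0.27) and Tcf7l1 (-0.00484, adjusted p = 0.98) and for cytosolic Tcf7l1 (-0.15, adjusted p = 0.072).

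Axin2 had one of the fastest declines of the set. In total RNA its ratio was 0.492, 0.581 and 0.521 at 30 min, 0.36, 0.223 and 0.262 at 60 min, 0.105, 0.143 and 0.24 at 120 min, and 0.0418, 0.0766 and 0.0454 at 240 min. The groups at 30, 60 and 240 min did not overlap, and those at 60 and 120 min did. The slope was -0.90 ± 0.10 log2 units per h (SE, n = 12 libraries, limma adjusted p = 4.3e-06), lower than that of all but 6.14% of the tested genes, and relative to the median gene it was -0.67 (adjusted p = 1.9e-05).

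In the cytosol Axin2 stood at 0.722, 0.69 and 0.811 at 30 min, 0.407, 0.392 and 0.404 at 60 min, 0.173, 0.225 and 0.231 at 120 min, and 0.055, 0.0523 and 0.0372 at 240 min. In the membrane fraction it went from 0.613, 0.66 and 0.741 through 0.33, 0.378 and 0.364 and then 0.0965, 0.0609 and 0.141 to 0.0363, 0.0245 and 0.0137. In both fractions each time point lay wholly below the one before. The slopes were -1.10 ± 0.06 in the cytosol (adjusted p = 4.6e-09) and -1.38 ± 0.12 in the membrane fraction (adjusted p = 3.8e-07), where only 1.06% of genes had a lower one.

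The nuclear time course of Axin2 had another shape. Its ratio was already 0.39, 0.356 and 0.552 at 30 min, below every cytosolic and membrane value at that time. It was then 0.299, 0.253 and 0.138 at 60 min, 0.161, 0.175 and 0.116 at 120 min, and 0.124, 0.102 and 0.0667 at 240 min, when every nuclear value lay above every cytosolic one. The nuclear slope was -0.55 ± 0.11 (adjusted p = 0.00063), and 26.7% of genes had a lower one. Relative to the median gene it was -0.24 (adjusted p = 0.066).

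The difference in slope between compartments was tested as the interaction of time with fraction over 24 libraries. Between nucleus and cytosol 1 of 5 tested members differed, Axin2, where 20.6% of all genes did. Its slope was higher, that is less steep, in the nucleus by 0.54 ± 0.12 log2 units per h (adjusted p = 0.0033). This call was lost without replicate 1 (0.53, adjusted p = 0.054) and without replicate 2 (0.55, adjusted p = 0.072). It was lost too over 30 to 120 min alone (0.23, adjusted p = 0.67), so it rests on the 240 min libraries, and with libraries scaled to mitochondrially encoded mRNAs (0.58, adjusted p = 0.33). Without the nuclear library that stood apart it was kept (0.57, adjusted p = 0.0031). Znrf3 differed the other way by -0.26 ± 0.10, which missed the threshold (adjusted p = 0.071). With each harvest, that is time and replicate number together, as a block, Znrf3 was called too (-0.26 ± 0.08, adjusted p = 0.035). Tcf7 differed by 0.09 ± 0.05 (adjusted p = 0.21) and Tcf7l1 by 0.03 ± 0.05 (adjusted p = 0.75).

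Between membrane and cytosol 0 of 4 tested members differed in limma, and 6.7% of all genes did. At an unadjusted p under 0.05 there were 2, Axin2 at -0.28 ± 0.13 (adjusted p = 0.22) and Tcf7 at 0.08 ± 0.04 (adjusted p = 0.25). How many of all genes passed this unadjusted threshold was not counted. With libraries scaled to mitochondrially encoded mRNAs all 4 differed (Axin2, Tcf7, Tcf7l1 and Znrf3). Axin2 was then at -0.67 (adjusted p = 0.013) and Tcf7 turned to -0.31 (adjusted p = 0.033). This scaling shifts the slope differences of all genes by the same amount, and the share of all genes called under it was not counted. The scaling reference itself stood at 240 min at a log2 ratio of 1.06 in membrane and -0.90 in cytosolic RNA.

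**Figure D2:**
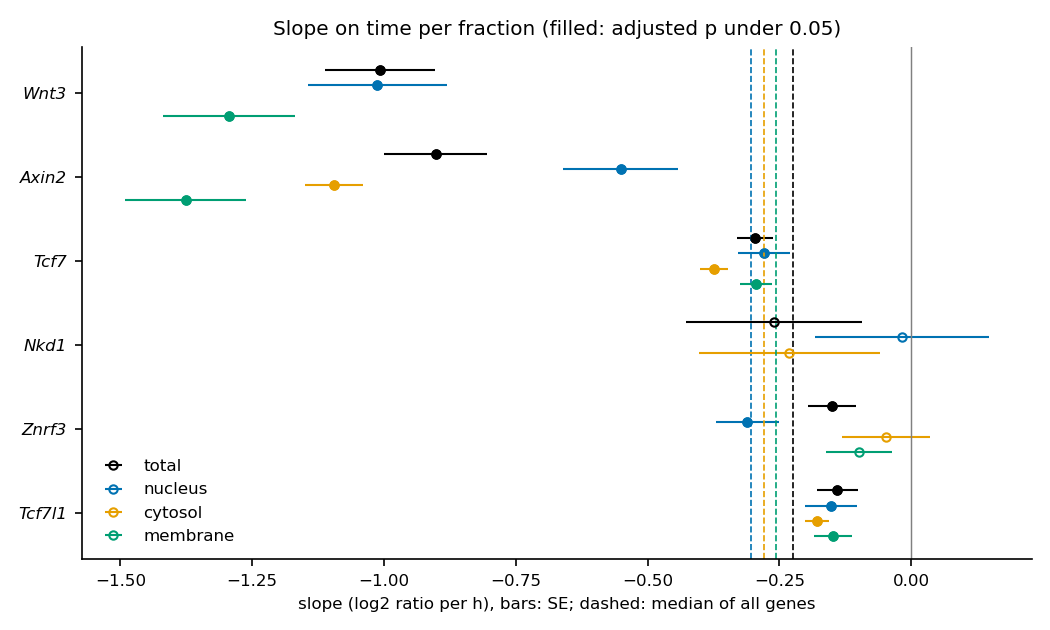
Linear slope of log2 ratios against time (log2 units per h) for the members listed in all 12 libraries of a fraction, with SE as bars, filled symbols for an adjusted p under 0.05 and dashed lines for the median slope of all genes in that fraction. Wnt3 and Axin2 lie far to the left of the medians in total and membrane RNA, at -0.90 and lower, and nuclear Axin2 lies at -0.55.

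Wnt3, a secreted ligand whose mRNA is translated at the endoplasmic reticulum, was near its start level in total RNA up to 60 min and low at 240 min. Its ratio in total RNA was 1.61, 0.587 and 0.789 at 30 min and 0.912, 0.744 and 1.09 at 60 min, so both times overlapped each other and 1. It was 0.195, 0.477 and 0.353 at 120 min and 0.087, 0.0911 and 0.0946 at 240 min. Those last libraries lay far below all others and close to each other.

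In the nucleus Wnt3 went from 0.503, 0.949 and 0.324 at 30 min to 0.272, 0.481 and 0.275 at 60 min, 0.275, 0.0929 and 0.127 at 120 min, and 0.076, 0.034 and 0.0333 at 240 min. In the membrane fraction it was 1.77, 0.713 and 0.832, then 0.451, 0.389 and 0.509, then 0.495, 0.18 and 0.209, and finally 0.0286, 0.0289 and 0.0648. The 240 min libraries lay below all earlier ones in both fractions. The slopes were -1.01 ± 0.10 in total RNA (adjusted p = 3.0e-06), -1.01 ± 0.13 in the nucleus (adjusted p = 2.2e-05) and -1.29 ± 0.13 in the membrane fraction (adjusted p = 1.4e-06). In these fractions only 4.23%, 5.73% and 1.49% of genes had a lower slope.

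Cytosolic Wnt3 was listed in 10 of 12 libraries and so was not in the fits above. The listed ratios were 1.1 and 0.395 at 30 min, 1.33 and 0.508 at 60 min, 0.462, 0.464 and 0.455 at 120 min, and 0.277, 0.263 and 0.562 at 240 min. At 240 min all 3 lay above all 3 membrane values. A fit that asked only for listing in at least 2 of 3 libraries at each time, and left the missing libraries out, gave a cytosolic slope of -0.32 ± 0.14 (adjusted p = 0.063). In that fit the membrane slope of Wnt3 was lower than the cytosolic one by -0.98 ± 0.19 (adjusted p = 0.0036), a difference called for 5.5% of all genes. The nuclear slope was lower by -0.69 ± 0.19 (adjusted p = 0.018), called for 17.6%. Both comparisons rest on the 10 listed cytosolic libraries. The cytosolic libraries that did not list Wnt3 stood at 30 and 60 min, so its cytosolic level was close to the lowest that is listed. Whether such a floor makes the cytosolic slope less steep was not tested.

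Sp5, a zinc finger factor induced by Wnt in many cell types, is the shortest gene of the set and the only one with a match to a TCF/LEF motif near its start. The letters CTTTGAA and CTTTGAT were searched for on both strands, hence also as TTCAAAG and ATCAAAG, in windows of 300 bases (250 before and 50 after each start) from RefSeq on GRCm38.p6. Of 32851 windows 8.65% held a match. A window existed for 9 of the 10 genes, Znrf3 being without one, and 1 of their 15 windows held a match, at position -104 from the start of Sp5. The 250 bases before the start of Sp5, chr2:70474673-70474922 on the plus strand, are shown for that match, in capitals.
Sp5: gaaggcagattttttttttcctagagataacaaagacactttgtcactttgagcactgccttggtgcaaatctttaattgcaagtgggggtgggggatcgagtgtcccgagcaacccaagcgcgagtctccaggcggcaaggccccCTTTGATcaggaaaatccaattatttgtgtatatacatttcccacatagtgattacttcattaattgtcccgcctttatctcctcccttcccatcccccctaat
A match is a description of letters and no measure of binding.

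In total RNA Sp5 was listed at 0.625, 0.423 and 0.568 at 30 min, 0.188, 0.179 and 0.786 at 60 min, 0.211 and 0.172 at 120 min, and 0.0656 and 0.136 at 240 min. Cytosolic Sp5 went from 0.878, 1.34 and 0.592 through 0.553, 0.338 and 0.29 and then 0.154, 0.103 and 0.101 to 0.0461 and 0.0438. Each cytosolic time lay below the one before, with 1 library not listing Sp5 at 240 min. Nuclear Sp5 was listed in 8 libraries, between 0.108 and 0.927, and in none of the 3 at 240 min. Membrane Sp5 was listed in 10, between 0.0786 and 1.12.

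Sp5 was tested only with the less strict rule on listing. There its slope was -0.67 ± 0.17 in total RNA (adjusted p = 0.0057), where 52.3% of all genes fell. It was -1.22 ± 0.15 in the cytosol (adjusted p = 2.2e-05), where 61.2% fell, and -0.89 ± 0.18 in the membrane fraction (adjusted p = 0.0015), where 57.5% fell. Libraries that do not list Sp5 are left out of these fits, and they stand mostly at late times, so the fitted slopes leave out its lowest values.

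From 30 to 240 min Znrf3 and Nkd1, the other listed feedback inhibitors, had less steep slopes in total RNA than Axin2. For Nkd1 this difference was not tested. The loss up to 30 min is not part of the slopes, and there total Znrf3 (mean 0.514) and Axin2 (mean 0.531) were alike. Znrf3 in total RNA stood at 0.458, 0.509 and 0.574 at 30 min, 0.415, 0.383 and 0.417 at 60 min, 0.506, 0.486 and 0.428 at 120 min, and 0.327, 0.34 and 0.319 at 240 min. Most of its loss in total RNA was present at 30 min, and the 240 min libraries lay below all others. At 60 min every total library lay below every library of the nuclear, cytosolic and membrane fractions, whose lowest ratio was 0.453. Whole cells and fractions each have their own scaling and start level, on which the early loss in total RNA depends. The cause of this gap was not tested. Its slope in total RNA was -0.15 ± 0.05 (adjusted p = 0.013), lost without replicate 2 (-0.16, adjusted p = 0.058), without replicate 3 (-0.12, adjusted p = 0.15) and over 30 to 120 min alone (-0.03, adjusted p = 0.83), and turned to 0.08 (adjusted p = 0.23) relative to the median gene.

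In the cytosol the time course of Znrf3 went up and then down. Its ratio was 0.674, 0.473 and 0.717 at 30 min, 0.826, 0.736 and 0.704 at 60 min, 0.926, 1.2 and 1.05 at 120 min, and 0.674, 0.545 and 0.524 at 240 min. All 3 libraries at 120 min lay above all 9 others. A straight line described this poorly (slope -0.05 ± 0.08, adjusted p = 0.63), so steps between times were tested, chosen after the values were seen.

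From 30 to 120 min cytosolic Znrf3 rose by 0.79 ± 0.17 on the log2 scale (limma, adjusted p = 0.0039), a step called upward for 1.44% of genes, and higher than that of 98.28% of them. This call was lost without replicate 2 (0.51, adjusted p = 0.068) and with scaling to mitochondrially encoded mRNAs (0.90, adjusted p = 0.093). From 120 to 240 min it fell by 0.87 ± 0.17 (adjusted p = 0.0018), as did 47.9% of genes, and relative to the median gene this second step was -0.36 (adjusted p = 0.12).

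In the nucleus Znrf3 showed no such rise on the deposited scale. It stood at 0.481, 0.721 and 0.546 at 30 min, 0.498, 0.485 and 0.493 at 60 min, 0.62, 0.559 and 0.459 at 120 min, and 0.253, 0.268 and 0.262 at 240 min. The first 3 times overlapped, and the last lay below them. The nuclear step from 30 to 120 min was -0.08 ± 0.18 (adjusted p = 0.74), where 2.08% of genes were called higher, and relative to the median gene it was 0.55 (adjusted p = 0.0073). The nuclear slope over all times was -0.31 ± 0.06 (adjusted p = 0.00053), and 0.00 relative to the median gene (adjusted p = 0.95). The step differed between nucleus and cytosol by -0.87 ± 0.24 (adjusted p = 0.025), a difference called for 10.3% of genes. That call was lost without replicate 2 (-0.45, adjusted p = 0.45), without replicate 3 (-0.90, adjusted p = 0.24) and with mitochondrial scaling (-1.5, adjusted p = 0.071), and it was kept without the nuclear library that stood apart (-0.997, adjusted p = 0.0068).

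Membrane Znrf3 was 0.711, 0.62 and 0.696 at 30 min, 0.56, 0.453 and 0.644 at 60 min, 0.807, 0.786 and 0.78 at 120 min, and 0.414, 0.523 and 0.528 at 240 min. Here too the 120 min libraries lay above all others. The step from 30 to 120 min was 0.23 ± 0.15 (adjusted p = 0.20), where 2.37% of genes were called higher. Relative to the median gene this membrane step was 0.82 (adjusted p = 0.00063), and with mitochondrial scaling it was -0.46 (adjusted p = 0.056).

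Znrf3 is a long gene, and the same step is given here for long genes as a class. Of the 1153 genes over 100 kb tested in the cytosol 4.6% were called higher at 120 than at 30 min, against 1.29% of 4508 genes under 10 kb. The median change of the longest class was -0.33 and Znrf3 exceeded 96.8% of it. In the nucleus 10% of 1317 genes over 100 kb were called higher, and Znrf3 lay at the middle of that class, above 49.2% of it. Whether length has a part in the course of Znrf3 was not tested.

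Nkd1 varied widely between replicates. Its ratio in total RNA was 0.927, 1.1 and 1.47 at 30 min, 0.487, 3.25 and 1.02 at 60 min, 2.19, 1.34 and 1.32 at 120 min, and 0.325, 1.02 and 0.707 at 240 min. Nuclear Nkd1 lay between 0.122 and 1.06 over its 12 libraries, and all 3 at 30 min lay between 0.233 and 0.361. Cytosolic Nkd1 lay between 0.242 and 1.89, and membrane Nkd1 between 0.422 and 2.28 in 11 libraries. The slope was -0.26 ± 0.17 in total RNA (adjusted p = 0.20), -0.02 ± 0.16 in the nucleus (adjusted p = 0.93) and -0.23 ± 0.17 in the cytosol (adjusted p = 0.25), with SEs above those of the other members. In a step chosen after the values were seen, from 30 to 120 min, cytosolic Nkd1 was called lower by -1.47 ± 0.51 on the log2 scale (adjusted p = 0.036), as were 48.8% of all genes, and over these times its slope was -1.07 (adjusted p = 0.037). The cytosolic step was not called without replicate 2 (-1.29, adjusted p = 0.25), without replicate 3 (-0.72, adjusted p = 0.35), relative to the median gene (-0.99, adjusted p = 0.14), with mitochondrial scaling (-1.35, adjusted p = 0.10) or with the replicate number as a block (adjusted p = 0.058). In the membrane fraction the same step was -1.27 ± 0.46 with the less strict rule on listing (adjusted p = 0.046), under which 46.8% of genes were called lower.

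The TCF factors Tcf7 and Tcf7l1 fell slowly. Tcf7 in total RNA went from 0.903, 0.94 and 0.907 at 30 min through 0.683, 0.79 and 0.776 at 60 min and 0.592, 0.549 and 0.683 at 120 min to 0.395, 0.493 and 0.41 at 240 min. In the cytosol it stood at 0.937, 1.04 and 1.16, then 1.07, 1.03 and 1.05, then 0.725, 0.758 and 0.782, and 0.442, 0.431 and 0.454 at the end. The cytosolic level at 60 min had thus not left that at 30 min, and the last 2 times lay clearly below.

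Nuclear Tcf7 ran from 0.643, 0.903 and 0.59 at 30 min to 0.33, 0.393 and 0.364 at 240 min, and membrane Tcf7 from 0.942, 1.02 and 0.917 to 0.412, 0.505 and 0.516. Tcf7 fell in each fraction, with slopes of -0.30 ± 0.03 in total RNA (adjusted p = 7.4e-06), -0.28 ± 0.05 for nuclear RNA (adjusted p = 0.00024), -0.37 ± 0.03 in the cytosol (adjusted p = 6.3e-08) and -0.29 ± 0.03 in the membrane fraction (adjusted p = 2.6e-06). Relative to the median gene it was lower only in the cytosol (-0.09, adjusted p = 0.0078), and nuclear Tcf7 turned to 0.04 (adjusted p = 0.55).

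Tcf7l1 kept more of its start level than Tcf7. In total RNA it stood at 1.03, 0.875 and 1.03 at 30 min, 0.98, 0.836 and 0.919 at 60 min, 0.615, 0.704 and 0.805 at 120 min, and 0.679, 0.659 and 0.751 at 240 min. The last 2 times overlapped. At 240 min it was 0.703, 0.679 and 0.476 in nuclear, 0.59, 0.58 and 0.61 in cytosolic and 0.486, 0.679 and 0.67 in membrane RNA.

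The Tcf7l1 slopes lay between -0.14 and -0.18 and passed the test in every fraction, but relative to the median gene each turned positive. The slope was -0.14 ± 0.04 in total RNA (adjusted p = 0.0074) and 0.09 after centring (adjusted p = 0.032). It was -0.15 ± 0.05 in the nucleus (adjusted p = 0.016) and 0.16 centred (adjusted p = 0.016), -0.18 ± 0.02 in the cytosol (adjusted p = 1.5e-05) and 0.10 centred (adjusted p = 0.0022), and -0.15 ± 0.04 in the membrane fraction (adjusted p = 0.0030) and 0.11 centred (adjusted p = 0.0013). The uncentred nuclear call was lost without replicate 2 (-0.16, adjusted p = 0.089) or replicate 3 (-0.10, adjusted p = 0.14), and the membrane call without replicate 1 (-0.09, adjusted p = 0.10).

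Tcf7l2 was listed too rarely for any fit. Total RNA gave 1.2 and 1.42 at 30 min, 0.422 at 60 min, 0.316 and 0.771 at 120 min, and 0.281 at 240 min. The nucleus gave 8 values between 0.143 and 0.912, and the membrane fraction 6 between 0.595 and 2.56.

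To compare members free of any library scaling, the quotient of 2 members was formed within each library. These quotients were chosen after the values were seen, and 8 slopes on time were tested with a two-sided permutation test of 100000 resamples and Benjamini-Hochberg adjustment. A quotient's slope is the difference of the slopes of its 2 members, which were known when the pair was chosen. The adjustment covers these 8 tests and not the other pairs that could have been formed. The p-values thus describe the chosen pairs and are no independent support. The quotient of Tcf7 over Tcf7l1, activator over repressor, fell in all 4 fractions. In total RNA it lay between 0.874 and 1.08 at 30 min and between 0.545 and 0.748 at 240 min, in the nucleus between 0.776 and 0.909 and between 0.47 and 0.765. In the cytosol these ranges were 1.03 to 1.25 and 0.743 to 0.749, and in the membrane fraction 1.02 to 1.18 and 0.744 to 0.848. The ranges of both times did not overlap in any fraction. The slopes were -0.16 (permutation adjusted p = 0.012), -0.13 (permutation adjusted p = 0.023), -0.20 (permutation adjusted p = 0.00051) and -0.15 log2 units per h (permutation adjusted p = 0.0004), in that order.

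The quotient of Axin2 over Znrf3, an intracellular over a cell-surface feedback inhibitor, fell further. In the cytosol it went from between 1.07 and 1.46 at 30 min to between 0.071 and 0.0959 at 240 min, and in the membrane fraction from between 0.862 and 1.06 to between 0.0259 and 0.0877. The slopes were -0.75 in total RNA (permutation adjusted p = 0.00021), -1.05 in the cytosol (permutation adjusted p = 0.00016) and -1.28 in the membrane fraction (permutation adjusted p = 0.00016). In the nucleus the slope was -0.24 (permutation adjusted p = 0.093).

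**Figure D3:**
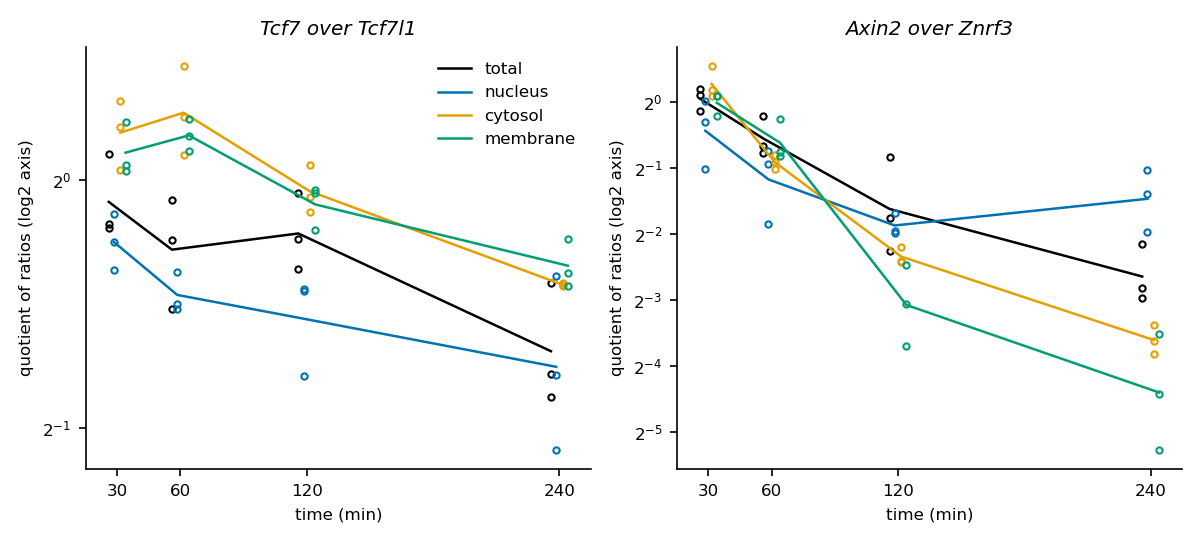
Quotient of the ratios of 2 members within each library (log2 axis) against time in min, with circles for libraries, set slightly apart by fraction, and lines through the geometric means. Tcf7 over Tcf7l1 ends between 0.47 and 0.848 over all fractions, and Axin2 over Znrf3 ends lowest in the membrane fraction and highest in the nucleus.

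The steps between successive times in total RNA showed when the whole-cell level moved. From 30 to 60 min 0 of 6 members were called lower in limma, against 2.32% of all genes. An unadjusted p under 0.05 was found for 3 (Axin2, Znrf3 and Tcf7). The share of all genes at that unadjusted threshold was not counted, and the median step of all genes was -0.24. From 60 to 120 min 2 were lower, against 26.5%, Wnt3 by -1.5 (adjusted p = 0.019) and Tcf7l1 by -0.37 (adjusted p = 0.049), and each of these calls was lost when any 1 replicate was left out. From 120 to 240 min 4 were lower, against 29.2%. They were Wnt3 (-1.82, adjusted p = 0.0049), Axin2 (-1.55, adjusted p = 0.0054), Tcf7 (-0.49, adjusted p = 0.0099) and Znrf3 (-0.52, adjusted p = 0.0096). Without replicate 3 none of the 4 was called, with adjusted p between 0.081 and 0.20.

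Half-lives were fitted as a single exponential to the ratios of a fraction, with the start level left free. Loss before 30 min is thus not part of these half-lives. In total RNA the half-life was 47.7 ± 16.8 min for Axin2 (SD over fits to the 3 replicate series), 65.6 ± 41.9 min for Wnt3, 189 ± 10.7 min for Tcf7, 314 ± 165 min for Nkd1, 388 ± 115 min for Tcf7l1 and 412 ± 149 min for Znrf3. Axin2 and Wnt3 did not differ beyond their spread, nor did Tcf7l1 and Znrf3. Total Znrf3 had a mean ratio of 0.514 at 30 min and of 0.329 at 240 min. Its long half-life therefore describes only the slower loss after 30 min and leaves out the early drop. In the membrane fraction Axin2 and Wnt3 had 33.1 ± 0.978 min and 33.2 ± 13.7 min, and 2.64% and 2.67% of genes had shorter half-lives. Cytosolic Axin2 had 44.3 ± 5.16 min and nuclear Axin2 64.0 ± 47.8 min, where the 3 series gave 97.1, 103 and 17.4 min. Nuclear Wnt3 had 46.5 ± 28.8 min.

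Tcf7 had 223 ± 56.7 min as nuclear, 168 ± 14.7 min as cytosolic and 193 ± 32.2 min as membrane RNA, and Tcf7l1 443 ± 413, 341 ± 29.8 and 393 ± 204 min. Cytosolic Znrf3 does not decay as one exponential and its fit of 1763 min has no finite value in 1 series. The median over tested members was 251 ± 1.52 min for total, 225 ± 57.0 min for nuclear, 170 ± 118 min for cytosolic and 193 ± 32.2 min for membrane RNA. Over all tested genes it was 244 ± 13.5, 176 ± 92.4, 213 ± 22.8 and 219 ± 22.6 min. The members' medians moved widely with the processing, from 145 to 1314 min in total, 70.7 to 957 min in nuclear and 90.9 to 1776 min in membrane RNA, and up to 546 min in cytosolic RNA, with no finite nuclear or cytosolic value relative to the median gene. Leaving out 1 replicate gave 228 to 270 min in total RNA, a wider range than its SD.

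**Figure D4:**
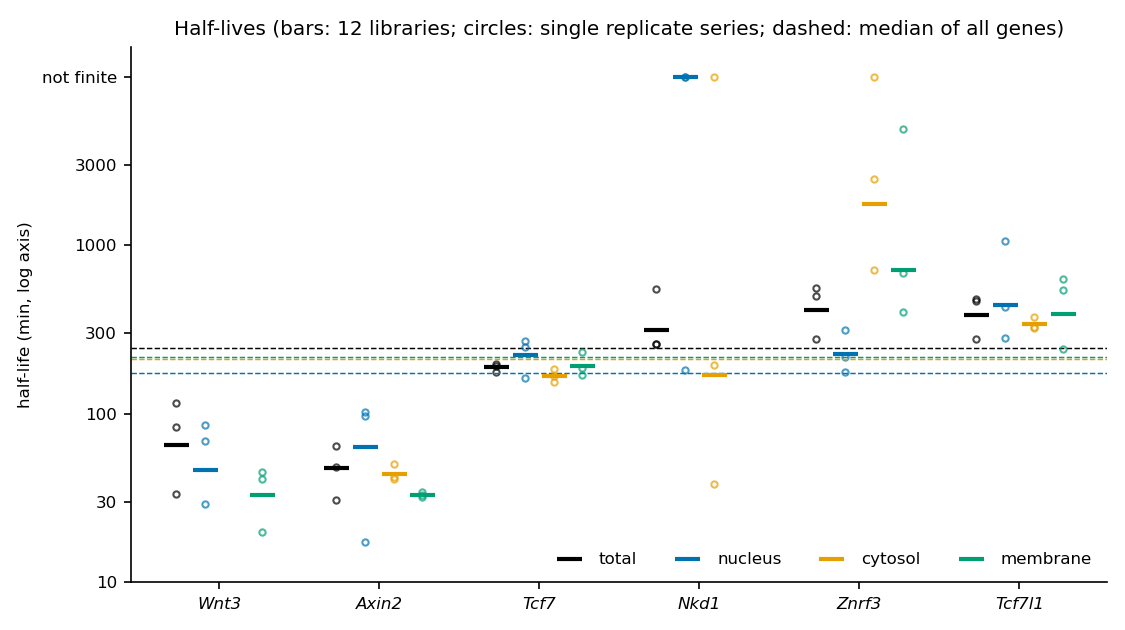
Half-life in min (log axis) of the members tested in each fraction, with bars for the fit to 12 libraries, circles for fits to each replicate series and dashed lines for the median of all genes. Wnt3 and Axin2 lie between 33.1 and 65.6 min, Tcf7 between 168 and 223 min and Tcf7l1 between 341 and 443 min.

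The 3′ untranslated regions (3′UTRs) were compared for AU-rich elements, ATTTA repeats that destabilising proteins bind in many short-lived mRNAs. In the sense strand of the transcript, the longer form TATTTAT, which contains ATTTA, occurs 2 times in Axin2, 2 times in Znrf3, 3 times in Rnf43 and 1 time each in Wnt3, Nkd1 and Tcf7l2. It occurs in none of Tcf7, Tcf7l1, Sp5 and Lef1, and 28.2% of 9738 tested coding genes have at least 1. The sites of Axin2, Wnt3, Znrf3 and Nkd1 are shown, since these are the members tested in at least 3 fractions that carry it, with the element in capitals and positions on GRCm38.
Axin2, chr11:108949623-108949645, plus strand: gcctgaacTATTTATtcaaaaca
Axin2, chr11:108949774-108949796, plus strand: cttactgaTATTTATtgaacagt
Wnt3, chr11:103817882-103817904, plus strand: ataaatatTATTTATtatacaat
Znrf3, chr11:5276541-5276563, minus strand: tctcagaaTATTTATttactaat
Znrf3, chr11:5276525-5276547, minus strand: tactaataTATTTATcttaagcc
Nkd1, chr8:88592311-88592333, plus strand: taaactttTATTTATacgttgtg
Znrf3 has the longest 3′UTR of the set, with 3400 nt and 12 ATTTA, more than 95.8% of the tested genes. Axin2 has 1388 nt and 3 ATTTA, Wnt3 1889 nt and 4, and Tcf7 1512 nt and 0. Nkd1 has 1466 nt and 3 ATTTA, and Tcf7l1 982 nt and 2. Gene lengths of the 6 members tested in total RNA were 30.4 kb for Axin2, 30.6 kb for Tcf7, 43.8 kb for Wnt3, 73.5 kb for Nkd1, 162.9 kb for Tcf7l1 and 168.5 kb for Znrf3, and their slopes are given above. Whether these letters or gene length have a part in the slopes was not tested.

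For each gene listed in all 48 libraries, the genes with the most similar course were sought over the 16 means of fraction and time among 10694 genes. Axin2 was closest to Zim3 (Pearson r = 0.988) and Angptl4 (0.985), and Tcf7 to D10Wsu102e (0.989) and Zfp251 (0.988). Tcf7l1 was closest to Aldh4a1 (0.963) and Eras (0.949). The nearest courses to that of Znrf3, Golga5 (0.888) and Usp54 (0.853), were less similar. Among the members r was 0.871 for Axin2 and Tcf7, 0.81 for Tcf7 and Tcf7l1, 0.857 for Axin2 and Tcf7l1, 0.602 for Znrf3 and Tcf7, 0.33 for Axin2 and Znrf3 and 0.272 for Znrf3 and Tcf7l1. All these values share the common fall with time and the library scaling, and are descriptions over 16 points.

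Around the members, 81 further genes of the Wnt pathway were examined, of which 69 were listed somewhere. In total RNA 33 of 43 tested fell and 0 rose, where 56.9% of all genes fell. In the nucleus 32 of 42 fell and 0 rose (61.9% of all genes fell), in the cytosol 33 of 39 and 0 (67.1%), and in the membrane fraction 37 of 45 and 1 (62.2%). With mitochondrial scaling 38, 13, 15 and 43 fell in these fractions and 0 rose. That scaling shifts the slopes of all genes of a fraction by the same amount. The shares of all genes called under it were not counted, so these counts are not a result about the Wnt pathway genes. On the deposited scale none of the Wnt pathway genes rose at an unadjusted p under 0.05 in the first 3 fractions. Their median slopes were -0.345, -0.388, -0.366 and -0.409, against -0.223, -0.304, -0.279 and -0.256 over all genes. The gene that rose was Wls, the carrier that brings WNT proteins to the cell surface, with 0.34 ± 0.07 in the membrane fraction (adjusted p = 0.0012) and 0.15 ± 0.11 in total RNA (adjusted p = 0.28), and its membrane call was lost with mitochondrial scaling (0.12, adjusted p = 0.14). Relative to the median gene, 20 of the 43 fell and 10 rose in total RNA, 16 of 42 fell and 11 rose in the nucleus, 16 of 39 fell and 8 rose in the cytosol, and 22 of 45 fell and 9 rose in the membrane fraction. Over all genes 29.2% to 32.4% fell and 28.3% to 29.6% rose relative to it.

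The counts by role that follow are for total RNA, where 56.9% of all genes fell on the deposited scale, and where 31% fell and 28.8% rose relative to the median gene. Among ligands and their processing genes 2 of 3 tested fell (2 fell and 1 rose relative to the median gene), and the lowest slope was that of the ligand Wnt3a (-1.04 ± 0.12, adjusted p = 1.0e-05). Of receptors and co-receptors 7 of 10 fell (6 fell and 1 rose relative to the median gene), from Fzd10 (-1.95 ± 0.12, adjusted p = 4.6e-08) to the kinase-like receptor Ryk, with 0.06 ± 0.06 (adjusted p = 0.45). In the destruction complex and scaffold 8 of 10 fell (4 fell and 1 rose relative to the median gene). Axin1, the constitutive counterpart of Axin2, had -0.72 ± 0.05 (adjusted p = 1.0e-07), and Btrc, the ubiquitin ligase subunit that recognises β-catenin, 0.12 ± 0.23 (adjusted p = 0.69).

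Of β-catenin and its nuclear partners 8 of 8 fell (4 fell and 2 rose relative to the median gene), from the coactivator Bcl9l (-0.73 ± 0.08, adjusted p = 5.9e-06) to Ctnnb1, the gene of β-catenin, with -0.10 ± 0.03 (adjusted p = 0.023). Of secreted and membrane inhibitors 4 of 6 fell (2 fell and 2 rose relative to the median gene), with Apcdd1 lowest (-0.44 ± 0.05, adjusted p = 8.7e-06) and Sfrp1 highest (-0.05 ± 0.03, adjusted p = 0.24). Of other Wnt-responsive targets 4 of 6 fell (2 fell and 3 rose relative to the median gene). The transcription factor Sp8, a relative of Sp5, had -1.26 ± 0.13 (adjusted p = 2.7e-06), and the cyclin gene Ccnd1 -0.07 ± 0.07 (adjusted p = 0.41). Of a list of genes known to be held down by Tcf7l1 in mESCs 4 of 4 tested fell, and 3 fell and 1 rose relative to the median gene, from Klf2 (-1.40 ± 0.16, adjusted p = 6.3e-06) to Tfcp2l1 (-0.15 ± 0.04, adjusted p = 0.0031).

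**Figure D5:**
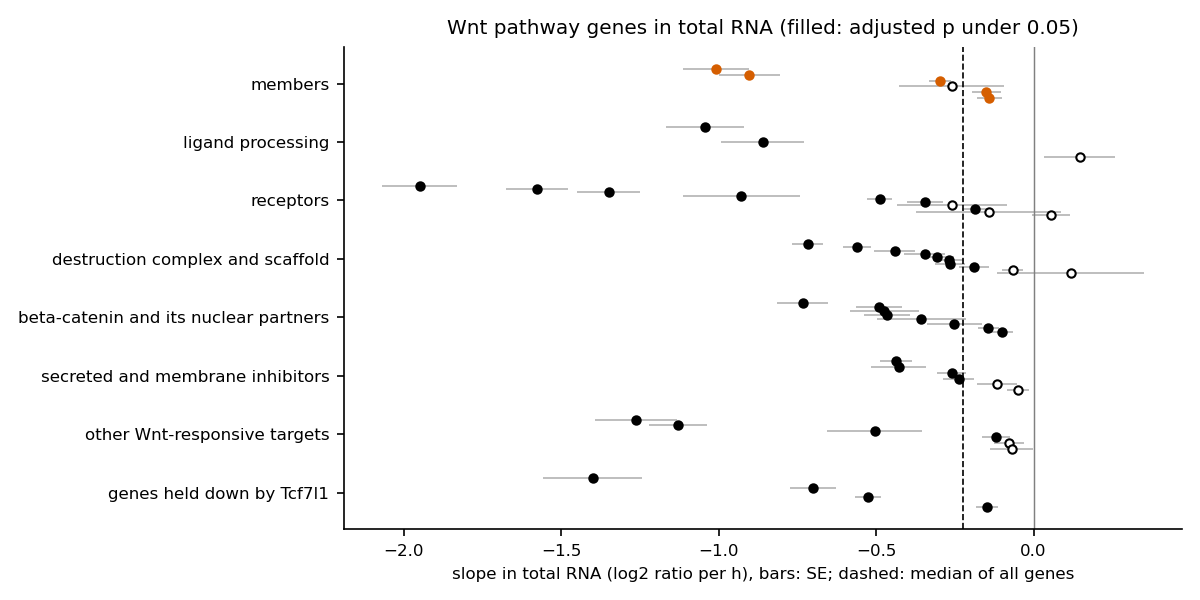
Linear slope of log2 ratios against time in total RNA (log2 units per h) for the members (orange where called) and 7 lists of other genes, with SE as bars, filled symbols for an adjusted p under 0.05 and a dashed line at the median of all genes. The lists hold other Wnt pathway genes by role, except the last, which holds genes held down by Tcf7l1. Frizzled receptor genes reach the lowest slopes, down to -1.95, and no gene was called above 0 on the deposited scale.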

How the data were processed

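The deposited values are ratios. The authors aligned reads of polyadenylated RNA with STAR 2.7.6 and counted them with RSEM 1.3.3 on mm10, scaled libraries on genes with long known half-lives, and divided each series by its 0 min level; genes at 0 are not listed. This treats the reference genes as stable, which sets the direction of slow changes. Read depth is not stated. Groups come from sample titles, which give 240 min as the last time where the protocol gives 180. Slopes and steps came from limma 3.58.1, run in R 4.3.3 (eBayes with trend, two-sided, Benjamini-Hochberg adjustment over all genes, no pseudocount) for genes that each of a fraction's 12 libraries listed, or each of 24 for differences. Half-lives were fitted by least squares in Python 3.11.15, with the start level left free, and quotients were tested with scipy 1.17.1. Other pathway genes named are those of lowest and highest slope in total RNA per list, plus, chosen after their values were seen, Wls in the membrane fraction. Members, lists and the rule for names were chosen with earlier results of these data known. Data were simulated for the total slope with 12762 genes, of which 200 changed. There limma recovered 45% of 100 genes at -0.3 and 85% of 100 at -0.6 log2 units per h, with 4 calls among unchanged genes. In the measured total RNA 56.9% of genes were called falling, so these shares do not give the recovery reached there. Within a fraction, libraries of the same replicate number did not deviate together at every time (correlations -0.088 to 0.273). The numbers were thus not taken to pair samples. Libraries of the same time and number correlated at -0.096 to 0.063 for nucleus and cytosol, and at 0.032 to 0.167 for membrane and cytosol. In the paper's protocol the fractions of a harvest are taken in turn from the same cells. Such libraries thus share cells if their numbers match across fractions, which the titles do not state. The main fits of differences did not block them, and blocking by harvest added the call of Znrf3 between nucleus and cytosol. Alternatives covered scaling, filter, pseudocount, trend, replicate left out, block, time window and last time point.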

Additional observations from a re-analysis of the deposited data

Results flagged for a closer look

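Axin2 had a less steep slope in the nucleus than in the cytosol, with a tested difference of 0.54 log2 units per h (limma interaction, adjusted p = 0.0033). Over 13 alternatives the difference in slope stayed between 0.23 and 0.71, with adjusted p between 0.00084 and 0.67.

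Znrf3 changed differently from 30 to 120 min in nucleus and cytosol, with a tested difference of -0.87 on the log2 scale (limma, adjusted p = 0.025). Over 10 alternatives it stayed between -1.5 and -0.45, with adjusted p between 0.0068 and 0.45. This contrast was chosen after the values were seen.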

How the results depend on the processing

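Library scaling had the largest hand in these results. Of 434 alternatives to 40 values of single genes, 347 kept direction and side of the threshold, 55 lost and 5 gained significance, and 27 reversed. After centring each library on its median gene, members falling numbered 2 in total, 1 in nuclear and 2 in membrane RNA, and members lower at 120 than 60 min 0 and at 240 than 120 min 2. Slopes reversed there were those of Znrf3 (0.0788 in total, 0.00485 in nuclear, 0.23 in cytosolic and 0.16 in membrane RNA), Tcf7l1 (0.0886, 0.16, 0.10 and 0.11), nuclear Tcf7 (0.0361) and Nkd1 (0.30 in the nucleus, 0.0501 in the cytosol), as was the nuclear step of Znrf3 from 30 to 120 min (0.55). By construction, centring removes the common fall. The members' median half-life was then 1314 min in total RNA and 1776 min in the membrane fraction, and took no finite value in nucleus and cytosol.

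With scaling to mitochondrially encoded mRNAs, 1 member fell in the nucleus and 1 in the cytosol, 0 differed between nucleus and cytosol and 4 between membrane and cytosol. Half-life medians were 174, 477, 546 and 90.9 min in total, nucleus, cytosol and membrane. Reversed values were nuclear Nkd1 (0.17) and Tcf7l1 (0.0411), cytosolic Znrf3 (0.11), the membrane against cytosol difference of Tcf7 (-0.31) and the membrane step of Znrf3 (-0.46). By construction, this scaling shifts the slopes and steps of all genes of a fraction by the same amount. The shares of all genes called under it were not counted. Why the mitochondrially encoded mRNAs moved was not tested.

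With listing in at least 2 of 3 libraries, 2 members differed between nucleus and cytosol and 1 between membrane and cytosol, 1 was lower at 120 than 60 min, and the total half-life median was 189 min, with more genes tested. A pseudocount of 0.1 gave 1 member lower at 60 than 30 min and nuclear Nkd1 at 0.00483, and limma without trend 1 lower at 120 than 60 min. Over 30 to 120 min alone, 2 members fell in the nucleus and 0 differed between nucleus and cytosol. Half-life medians were 172, 957 and 155 min in total, nucleus and membrane, and reversed values were Nkd1 (0.32 in total RNA, 0.53 in the nucleus), Znrf3 (0.52 in the cytosol, 0.21 in the membrane fraction) and the membrane against cytosol difference of Tcf7 (-0.0665). With 180 min as the last time the half-life medians were 207 min in total and 148 min in membrane, and nuclear Nkd1 was 0.0377. With the level at 0 min fixed at 1 they were 145 min in total and 70.7 min in the nucleus, and a straight line on log2 values gave 216 min in total. The causes of these shifts were not tested.

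Leaving out each replicate in turn gave 4 to 5 members falling in total and nuclear RNA, 3 to 4 in cytosolic and membrane RNA, and 0 to 1 differing between nucleus and cytosol. It gave 0 members lower at 120 than 60 min, 0 to 2 lower at 240 than 120 min, and a total half-life median of 228 to 270 min. Signs turned within these ranges for nuclear Nkd1 (-0.16 to 0.17, above 0 without replicate 2), the nuclear step of Znrf3 (-0.31 to 0.0583, above 0 without replicate 2) and the nucleus against cytosol difference of Tcf7l1 (-0.00959 to 0.071, below 0 without replicate 1). The replicate numbers were not taken to pair the samples. With the replicate number as a block, 5, 5, 3 and 4 members fell in total, nucleus, cytosol and membrane, as without it, and the Axin2 difference between nucleus and cytosol stayed at 0.54 (adjusted p = 0.0048), while the cytosolic step of Nkd1 from 30 to 120 min was no longer called (adjusted p = 0.058). A block by harvest (time and number together) gave 2 members that differed there, adding Znrf3 (adjusted p = 0.035). Ratios without depth and 3 replicates per time limit what can be seen for Nkd1, Sp5, Tcf7l2 and cytosolic Wnt3.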
